A study of Mus musculus with 6 samples.

Results

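The genes encoding the NFAT, NR4A and EGR transcription factors were compared between activated and naive mouse CD4+ T cells. They were chosen by name as 10 genes of 3 families that lie downstream of the T cell receptor: *Nfatc1*, *Nfatc2*, *Nfatc3* and *Nfat5*, then *Nr4a1*, *Nr4a2* and *Nr4a3*, and *Egr1*, *Egr2* and *Egr3*. All 10 were among the 14379 genes of the deposited table and among the 10173 that passed the filter on low values. RNA was sequenced from 3 libraries of activated cells (WT D2) and 3 libraries of naive cells (WT D0). Both groups were CD4+ T cells taken from lymph nodes and spleen of WT C57BL/6 mice, isolated as naive cells by FACS. The naive cells were collected at day 0, and the activated cells after 2 days with plate-coated anti-CD3e and soluble anti-CD28, antibodies that engage the T cell receptor complex and its costimulatory receptor, under conditions that favour no helper subset. By the methods' general statement, mice of both sexes were used as young adults, the sources do not say whether animals were pooled, and the study describes the replicates of each group as biologically independent. Cells cultured to day 2 without stimulation were not analysed here, so the effects of activation and of culture itself cannot be told apart.

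When the T cell receptor is engaged, calcium enters the cell and the phosphatase calcineurin removes phosphates from NFATc proteins, which then move into the nucleus. NFAT5, a relative without the calcineurin docking site, is best known for the response to osmotic stress. *Nr4a* and *Egr* genes are switched on within a short time of receptor signaling: the NR4A proteins are orphan nuclear receptors that restrain effector T cells and are tied to tolerance and exhaustion, and the EGR proteins are zinc finger factors, of which EGR2 and EGR3 are known to limit T cell activation. The table measures mRNA only, not the phosphorylation, location or amount of these proteins, and gives 1 value per gene, so that isoforms such as the long and short forms of NFATc1 are not separated.

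Values are on a log2 scale and headed FPKM, reads scaled to gene length and library size, and the table is named for ComBat, a correction for batches. The genes share a base value of 1.99 (3.97 on the linear scale), the value of 688 to 923 genes per library. A fold taken from these values understates the change of a gene that lies close to the base. For that reason values are also given below as linear units above the base. Depth is unknown, because read counts are not part of the table. Activated replicate 1 stood apart from activated replicates 2 and 3, and naive replicate 3 from naive replicates 1 and 2. Over the genes tested, the log2 differences of activated replicate 1 from the other two had SDs of 0.288 and 0.283, and those of replicate 2 from replicate 3 an SD of 0.108. Naive replicate 3 differed from the other two with SDs of 0.354 and 0.377, and naive replicate 1 from replicate 2 with an SD of 0.159. Activated replicate 1 held the highest activated value for 10 of the 10 genes described here and for 70.0% of all genes tested. Each call was therefore repeated without these 2 libraries, and all 10 calls were then as in the fit of all 6. Markers went with the labels: 6 of 7 markers of activated T cells were called higher in activated cells, and 7 of 7 markers of naive T cells were called lower. Of all genes tested, 31.2% were called higher and 21.6% lower. *Cd3e*, *Cd3g* and *Cd4* were present in every library and lower in activated cells, by 2.23, 2.55 and 1.45 on the log2 scale.

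Calls of a change required an adjusted p under 0.05 (limma, Benjamini-Hochberg over the genes tested) and at least a 1.5-fold difference. By this rule, 5 of the 10 genes were higher in activated cells and 3 were lower. Of all genes tested, 31.2% were called higher, 21.6% lower and 52.8% in either direction. The median log2 fold change was 0.80 over the 10 genes and 0.13 over all genes tested. The libraries of the 2 groups did not overlap for 9 of the 10 genes, as was so for 76.8% of all genes tested. Among the genes called, the direction followed the family: no NFAT gene was called higher, and no NR4A or EGR gene was called lower. Of these, *Nr4a2* passed the filter through its activated libraries alone, so it could not come out lower and adds nothing to that pattern. The log2 fold change of *Nfat5*, 0.37, was opposite in sign to those of the other NFAT genes. The 3 NR4A genes and *Egr2* and *Egr3* were higher, *Nfatc1*, *Nfatc2* and *Nfatc3* were lower, and *Nfat5* and *Egr1* were not called. In bulk RNA a change in the number of cells that express a gene and a change in its RNA per cell cannot be told apart.

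**Figure D1:**
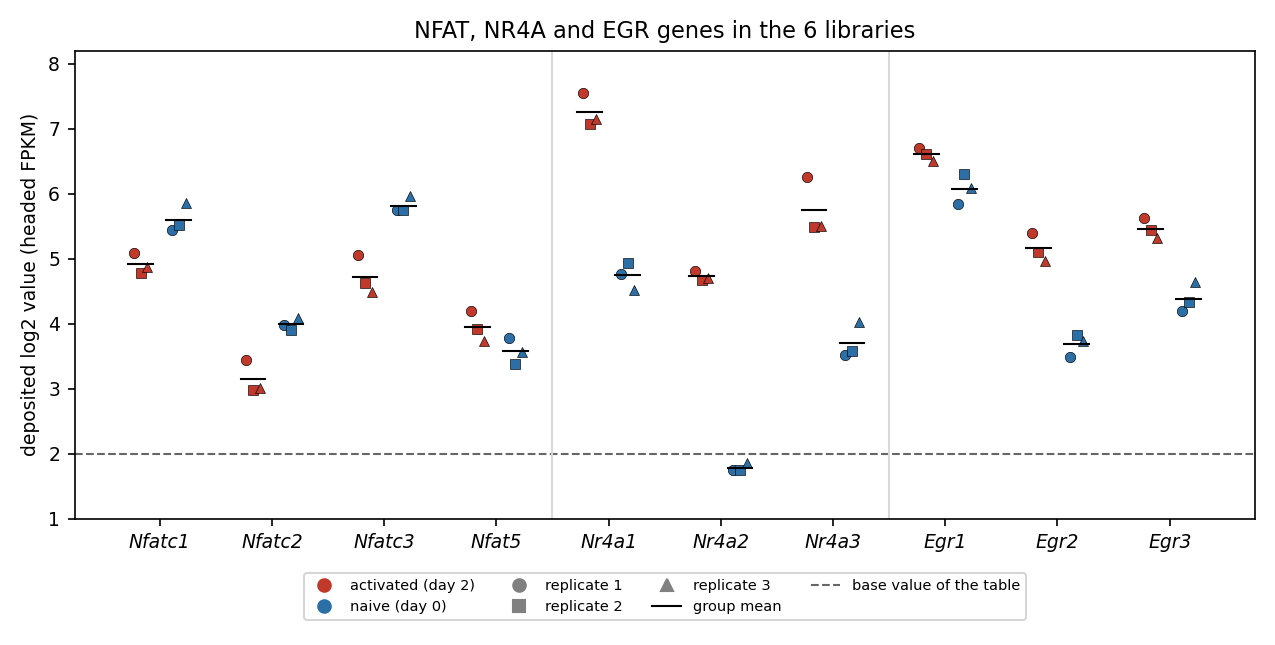
Deposited log2 values (vertical axis, headed FPKM) of the 10 genes in each library, with activated cells (red, left) and naive cells (blue, right) for each gene. Marker shape gives the replicate, the short line is the group mean and the dashed line is the base value of 1.99. Only *Nfat5* has groups that overlap, and only *Nr4a2* lies below the base value, in its 3 naive libraries.

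The 3 calcineurin-dependent NFAT genes were each lower in activated cells, in every library, by 1.61- to 2.14-fold. On the deposited log2 scale *Nfatc3* had the largest difference of the family. In units above the base the ratio of activated to naive cells was 0.433 for *Nfatc3* and 0.414 for *Nfatc2*. NFATc3 is expressed from the thymocyte stage onward. Its log2 values were 5.05, 4.63 and 4.49 in activated cells, against 5.76, 5.74 and 5.96 in naive cells. All 3 activated libraries lay below all 3 naive ones, with 0.69 between the nearest pair. The log2 fold change was -1.10 (SE 0.17, limma adjusted p = 0.00025). In units above the base, *Nfatc3* averaged 22.8 ± 5.66 in activated cells and 52.6 ± 4.85 in naive cells (SD, n = 3 each). *Nfatc3* (GRCm38/mm10, chr8:106058840-106130537, plus strand) overlaps *Gm27956* and *Esrp2* in the annotation, and no source used here says whether reads were counted by strand.

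*Nfatc2* encodes NFATc2 (also called NFAT1), the form that resting T cells hold ready in the cytoplasm, and lies at chr2:168476410-168601657 on the minus strand. Log2 values of *Nfatc2* were 3.44, 2.98 and 3.01 in activated cells, against 3.99, 3.91 and 4.09 in naive cells. The groups did not overlap and lay 0.46 apart, and activated replicate 1 was the nearest to the naive libraries. *Nfatc2* had a log2 fold change of -0.85 (SE 0.14, limma adjusted p = 0.00054). *Nfatc2* had the lowest level of the 10 genes in activated cells, with 4.97 ± 1.69 units above the base, against 12.0 ± 1.04 in naive cells (SD, n = 3 each).

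*Nfatc1* encodes NFATc1 (also called NFAT2), of which a short isoform is made from an inducible promoter in stimulated T cells. In log2 values, *Nfatc1* was at 5.09, 4.78 and 4.87 in activated cells, against 5.44, 5.51 and 5.85 in naive cells. The activated libraries lay below the naive ones by 0.35 at the nearest. It had a log2 fold change of -0.69 (SE 0.15, limma adjusted p = 0.0028), and the mean level was 26.3 ± 3.44 units above the base in activated cells and 45.0 ± 7.72 in naive cells (SD, n = 3 each). Without naive replicate 3 the log2 fold change was -0.56 and missed the 1.5-fold threshold (limma adjusted p = 0.0051). With activated replicate 1 left out as well it was -0.65 and was called. The gene (chr18:80606205-80713071, minus strand) overlaps the annotated gene *AC123818.1*.

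*Nfat5*, the calcineurin-independent member (chr8:107293470-107379517, plus strand), went its own way within the family. It was at log2 values of 4.19, 3.92 and 3.74 in activated cells, against 3.78, 3.38 and 3.57 in naive cells. The highest naive library lay above the lowest activated one. The log2 fold change of 0.37 (SE 0.15, limma adjusted p = 0.053) was not called, and an exact two-sided permutation test of the 6 values gave p = 0.2, where the smallest p that 3 against 3 libraries allow is 0.1.

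Summed over the family, NFAT mRNA came to 80.6, 59.4 and 57.0 units above the base in activated cells, against 111, 109 and 133 in naive cells. The sum in activated cells was 0.558 of that in naive cells (exact two-sided permutation p = 0.1, the smallest possible). *Nfat5* made up 17.7%, 18.7% and 16.4% of the family sum in activated cells, against 8.75%, 5.91% and 5.94% in naive cells. The share of *Nfatc3* was 34.5% ± 2.01 in activated cells and 44.8% ± 0.944 in naive cells. *Nfatc1* held 40.4% ± 3.43 in activated cells and 38.1% ± 2.48 in naive cells (SD, n = 3 each), with ranges that overlap. *Nfatc2* held the smallest share in activated cells, 7.44% ± 1.02, against 10.2% ± 0.435 in naive cells.

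The NR4A family held the largest differences of the 10 genes. *Nr4a1* encodes NUR77, a widely used reporter of T cell receptor signal strength, and lies at chr15:101254269-101274795 on the plus strand. Its log2 values were 7.55, 7.08 and 7.16 in activated cells, against 4.77, 4.94 and 4.53 in naive cells. The nearest libraries of the 2 groups were 2.14 apart. *Nr4a1* had a log2 fold change of 2.52 (SE 0.17, limma adjusted p = 1.5e-06), a 5.73-fold difference on the deposited scale. In units above the base, *Nr4a1* averaged 151 ± 28.5 in activated cells and 23.0 ± 3.85 in naive cells (SD, n = 3 each), a ratio of 6.57. It had the highest level of the 10 genes in activated cells, where it ranked 819 of 10173, against 3612 in naive cells.

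*Nr4a2* encodes NURR1, best known for dopaminergic neurons and also made by stimulated T cells, and lies at chr2:57106830-57124003 on the minus strand. It stood at log2 values of 4.82, 4.67 and 4.70 in activated cells, against 1.75, 1.75 and 1.86 in naive cells. All 3 naive values lay below the base value, so no fold is given. Of the genes tested, 173 had all 3 naive libraries below the base, and *Nr4a2* was the only one of the 10 genes described here with any such value. It passed the filter through its activated libraries alone, so it could not come out lower. The difference of the deposited log2 values was 2.94 (SE 0.10, limma adjusted p = 5.2e-08), and that size depends on how the base is treated. In activated cells *Nr4a2* had the smallest spread of the 10 genes, 4.73 ± 0.08 (SD of log2 values, n = 3).

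*Nr4a3* encodes NOR1, the third receptor of the family, and lies at chr4:48045153-48086447 on the plus strand. Its log2 values were 6.26, 5.48 and 5.50 in activated cells, against 3.52, 3.57 and 4.03 in naive cells. Activated replicate 1 and naive replicate 3, the libraries that stood apart, were each the highest of their group. The log2 fold change was 2.04 (SE 0.23, limma adjusted p = 3.8e-05), or 4.12-fold. Without those 2 libraries it was 1.94. In units above the base, *Nr4a3* averaged 51.7 ± 18.4 in activated cells and 9.27 ± 2.67 in naive cells (SD, n = 3 each).

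The 3 NR4A genes together came to 281, 194 and 202 units above the base in activated cells, against 30.8, 34.7 and 31.4 in naive cells, with *Nr4a2* counted as 0 in naive cells. The lowest activated sum was thus far above the highest naive sum, and the ratio of the means was 6.98 (exact two-sided permutation p = 0.1, the smallest possible). *Nr4a1* made up most of the sum in every library, 67.3% ± 1.64 in activated cells and 71.1% ± 9.06 in naive cells. *Nr4a3* held 22.5% ± 3.0 in activated cells and 28.9% ± 9.06 in naive cells (SD, n = 3 each), and its 39.3% in naive replicate 3 was the highest of the 6 libraries. *Nr4a2* held 8.61%, 11.1% and 10.9% in the activated libraries.

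**Figure D2:**
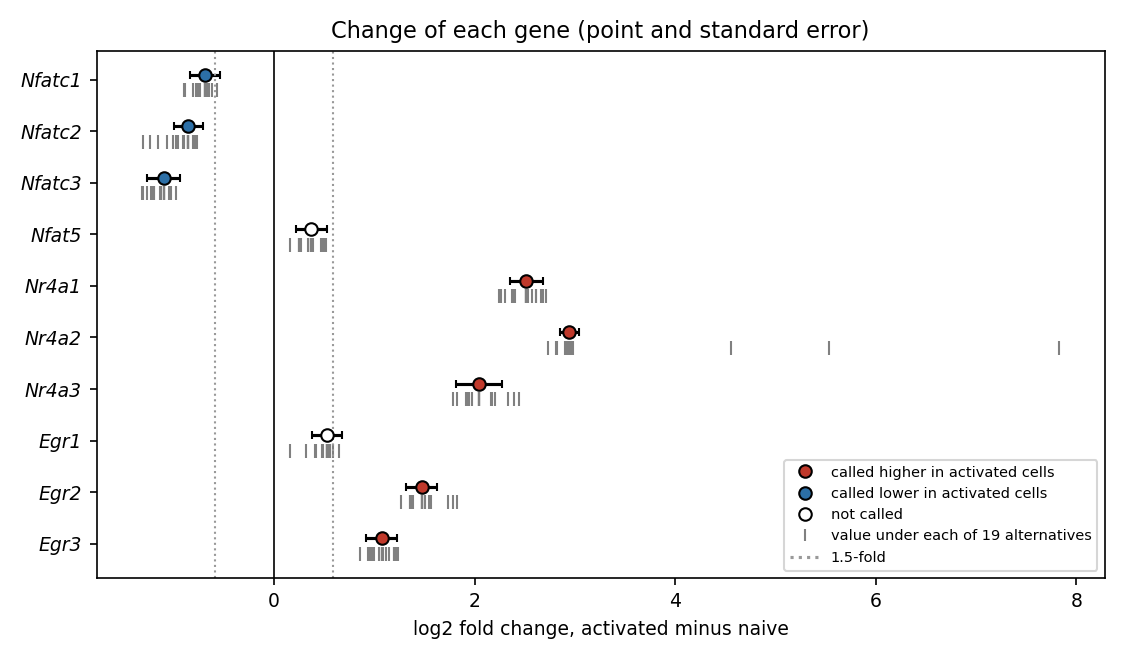
Log2 fold change of each gene, activated minus naive (horizontal axis), with its standard error (bar), and the same value under each of 19 alternatives (grey ticks). Dotted lines mark 1.5-fold in either direction. The 3 NR4A genes lie farthest to the right, between 2.04 and 2.94, and *Nfatc1*, *Nfatc2* and *Nfatc3* lie between -0.69 and -1.10.

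Because the 3 NR4A genes moved together, the 250 bases before their RefSeq start sites (GRCm38.p6, the assembly of mm10) were searched on both strands for 8 motifs, chosen after the values were seen. The cAMP response element, bound by CREB and related factors, has the full form TGACGTCA and the core TGACG. Each NR4A window held 4 copies of the core. Of 32851 windows searched, 17.8% held at least 1 copy and 45 (0.137%) held at least 4. The cut at 4 equals the count in the NR4A windows, so this share is a description and not a test. Copies began 233, 213, 69 and 40 bases before the RefSeq start of *Nr4a1*, 200, 144, 123 and 111 before that of *Nr4a2*, and 231, 213, 205 and 147 before that of *Nr4a3*. The window of *Nr4a1* lies inside the annotated gene, downstream of its annotated start. The sequences are shown with TGACG, or CGTCA where the core lies on the other strand, in capitals. They run 5′ to 3′ in the direction of the gene. That of *Nr4a3* ends where an annotated exon begins, and shows 3 of its 4 copies.
Nr4a1 (chr15:101266596-101266845, plus strand): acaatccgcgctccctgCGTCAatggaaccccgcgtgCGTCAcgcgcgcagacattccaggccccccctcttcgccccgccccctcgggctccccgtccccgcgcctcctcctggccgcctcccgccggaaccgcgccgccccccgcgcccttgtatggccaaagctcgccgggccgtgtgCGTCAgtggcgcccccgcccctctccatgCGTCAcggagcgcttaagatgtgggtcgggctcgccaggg
Nr4a2 (chr2:57124004-57124253, minus strand): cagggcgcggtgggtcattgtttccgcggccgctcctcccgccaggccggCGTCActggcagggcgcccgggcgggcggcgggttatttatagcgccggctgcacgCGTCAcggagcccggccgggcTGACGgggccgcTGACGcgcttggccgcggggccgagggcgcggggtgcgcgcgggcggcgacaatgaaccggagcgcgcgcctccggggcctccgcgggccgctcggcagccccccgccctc
Nr4a3 (chr4:48045055-48045152, plus strand): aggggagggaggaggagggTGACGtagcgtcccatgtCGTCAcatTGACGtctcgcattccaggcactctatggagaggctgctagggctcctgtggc

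A match is a string of letters and not a site known to be used. The full form TGACGTCA was in 1.55% of all windows and in none of the 13 windows searched for 7 of the 10 genes. The core also occurs inside that full form, on each strand. *Nr4a2* also held a MEF2 box (1.69% of all windows), 167 bases before its start. NFAT proteins bind the core GGAAA, which 55.6% of all windows held. It was found once in the window of *Nr4a2* and not in those of *Nr4a1* and *Nr4a3*.

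The EGR family divided, with *Egr2* and *Egr3* called higher and *Egr1* not called. *Egr2* (chr10:67535475-67542188, plus strand) encodes a factor that restrains T cells and takes part in anergy and in NKT cell development. The libraries gave it log2 values of 5.40, 5.11 and 4.97 in activated cells, against 3.49, 3.82 and 3.74 in naive cells. The groups were 1.15 apart at the nearest. *Egr2* had a log2 fold change of 1.48 (SE 0.15, limma adjusted p = 2.4e-05), or 2.78-fold. In units above the base, *Egr2* averaged 32.1 ± 5.68 in activated cells and 8.94 ± 1.5 in naive cells (SD, n = 3 each), a ratio of 3.59.

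*Egr2* had 5 RefSeq windows, more than any other of the genes searched. In 4 of them there was a CArG box, the element bound by serum response factor, which 1.47% of all windows held. These 4 lie inside the annotated gene, and the window at its annotated start held no match to any of the 8 motifs. In 3 of the 4 the box was the same one, seen from different start sites, and lay between 72 and 133 bases before them. It is shown here in capitals with the bases around it, since the windows of the NR4A genes held none.
Egr2 (GRCm38.p6, chr10:67537772-67537831, plus strand): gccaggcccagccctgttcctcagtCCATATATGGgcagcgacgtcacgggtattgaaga

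*Egr3*, a close relative of *Egr2* with overlapping functions in T cells, lies at chr14:70077203-70082614 on the plus strand. *Egr3* stood at log2 values of 5.62, 5.44 and 5.32 in activated cells, against 4.20, 4.33 and 4.64 in naive cells. The groups did not overlap, and the nearest libraries were 0.69 apart. The log2 fold change was 1.07 (SE 0.15, limma adjusted p = 0.00017), or 2.11-fold, and the mean level was 40.3 ± 4.64 units above the base in activated cells and 17.1 ± 3.35 in naive cells (SD, n = 3 each).

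*Egr1* is the family member induced by growth factors in most cell types and lies at chr18:34859823-34864984 on the plus strand. Its log2 values were 6.71, 6.62 and 6.50 in activated cells, against 5.85, 6.30 and 6.08 in naive cells. Every activated library lay above every naive one, by 0.20 at the nearest. The log2 fold change of 0.53 (SE 0.15, limma adjusted p = 0.0092) was under the 1.5-fold threshold, so *Egr1* was not called. It passed the threshold when activated replicate 3 was left out (0.59) or naive replicate 2 was left out (0.64). *Egr1* had the highest level of the 10 genes in naive cells and the second highest in activated cells.

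The EGR genes together came to 184, 164 and 150 units above the base in activated cells, against 75.3, 101 and 94.0 in naive cells, a ratio of means of 1.84 (exact two-sided permutation p = 0.1, the smallest possible). *Egr1* made up 56.6% ± 1.75 of the sum in activated cells and 71.0% ± 3.08 in naive cells. *Egr2* made up 20.8%, 18.5% and 18.2% in activated cells, against 9.67%, 10.1% and 9.97% in naive cells. *Egr3* made up 24.2% ± 0.32 in activated cells and 19.1% ± 3.13 in naive cells (SD, n = 3 each).

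**Figure D3:**
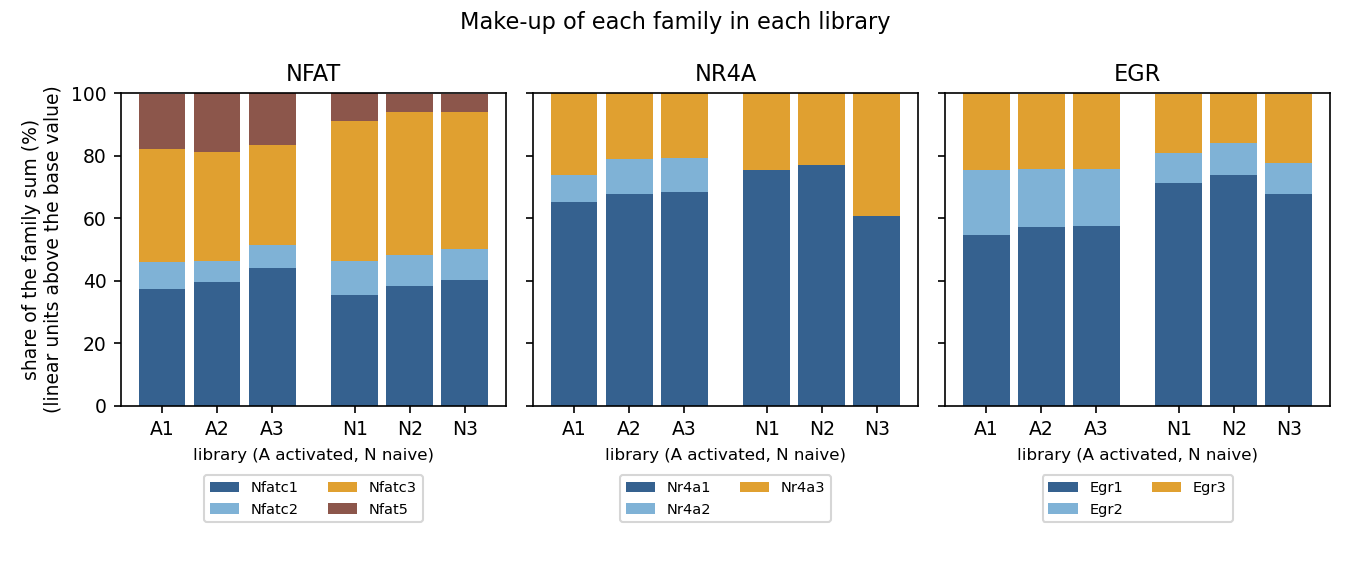
Share of each gene (percent, vertical axis) in the summed linear units above the base value of its family, for each of the 3 activated (left) and 3 naive (right) libraries. *Nfat5*, *Egr2* and *Egr3* take a larger share in every activated library than in any naive one, and *Nr4a2* takes a share only in activated libraries.

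Since values are scaled to gene length, levels of different genes were also compared within a library, as the log2 ratio of 2 genes, for 6 pairs. Deposited values include the base, so the size of these ratios depends on how the base is treated. *Egr2* relative to *Egr1* was -1.45 ± 0.13 in activated cells and -2.39 ± 0.07 in naive cells, a difference of 0.94. With a pseudocount of 0.1 above the base this difference was 1.27. *Egr2* relative to *Egr3* was -0.30 ± 0.07 in activated cells and -0.70 ± 0.20 in naive cells. *Nfatc1* relative to *Nfatc3* was 0.19 ± 0.17 in activated cells and -0.22 ± 0.10 in naive cells, so that *Nfatc1* was on average the higher of the pair in activated cells and the lower in naive cells. *Nfatc2* relative to *Nfatc3* was -1.58 ± 0.09 in activated cells and -1.82 ± 0.05 in naive cells (SD, n = 3 each). In these 4 pairs the 2 groups of libraries did not overlap (exact two-sided permutation p = 0.1, the smallest possible, 0.15 adjusted over the 6 pairs). The difference in the *Nfatc2* to *Nfatc3* ratio, 0.25, turned negative when pseudocounts of 0.1 or 0.5 above the base were used. *Nr4a1* relative to *Nr4a3* was 1.51 ± 0.20 in activated cells and 1.04 ± 0.47 in naive cells, with libraries that overlap. That pair had p = 0.2 by the exact permutation test. *Nr4a1* relative to *Nr4a2* was 2.53 ± 0.18 in activated cells (SD, n = 3). Because *Nr4a2* was below the base in naive cells, the difference of this ratio between the groups has no fixed size: it was -0.43 as deposited and -1.90, -2.84 and -5.12 with pseudocounts of 1, 0.5 and 0.1 above the base.

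The order of levels among the 10 genes differed between the groups. In activated cells it ran from *Nr4a1* (7.26) through *Egr1* (6.61), *Nr4a3* (5.75), *Egr3* (5.46), *Egr2* (5.16), *Nfatc1* (4.91), *Nr4a2* (4.73), *Nfatc3* (4.72) and *Nfat5* (3.95) to *Nfatc2* (3.14), as means of log2 values. *Nr4a1* and *Egr1* were each clear of the next gene in every library, and *Nfat5* and *Nfatc2* were clear of the gene above them. The ranges of neighbours from *Nr4a3* down to *Nfatc3* overlapped. In naive cells it ran from *Egr1* (6.08) through *Nfatc3* (5.82), *Nfatc1* (5.60), *Nr4a1* (4.74), *Egr3* (4.39), *Nfatc2* (4.0), *Nr4a3* (3.71), *Egr2* (3.68) and *Nfat5* (3.57) to *Nr4a2* (1.79). There *Nfatc3* and *Nfatc1* stood next to *Egr1*, with overlapping ranges, and clear of *Nr4a1*. *Nfatc2*, *Nr4a3*, *Egr2* and *Nfat5* followed each other with overlapping ranges, and *Nr4a2* lay below them all.

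The genes around these factors were taken from 8 lists, of 113 genes in all, of which 102 were tested, 36 called higher and 36 called lower, where 31.2% of all genes tested were called higher and 21.6% lower. With lists of 5 to 18 tested genes, counts close to those shares say nothing particular about a list. Some, such as *Pdcd1*, *Lag3* and *Irf4*, stand on more than 1 list. Of calcineurin and its inhibitors, 3 of 13 tested genes were higher and 4 lower, close to the shares of all genes, with a median log2 fold change of -0.13. *Ppp3ca*, a catalytic subunit of calcineurin, was lower by 2.13 on the log2 scale (SE 0.18, limma adjusted p = 5.9e-06). *Rcan3*, an inhibitor of calcineurin, had a log2 fold change of -0.99. *Ppia* and *Fkbp1a*, whose proteins are the cellular receptors of cyclosporin A and FK506, had values of 0.87 and 0.86, and *Calm3*, a calmodulin gene, 0.66. *Rcan1*, an inhibitor whose gene is itself an NFAT target, averaged 3.48 ± 0.08 in activated cells and 3.14 ± 0.19 in naive cells (SD, n = 3 each) and was not called (log2 fold change 0.34, limma adjusted p = 0.029).

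Of the kinases that return NFAT to the cytoplasm and its nuclear partners, 3 of 13 tested genes were higher and 4 lower, with a median of 0.12. The kinases *Dyrk2*, *Gsk3b* and *Dyrk1a* were lower, with log2 fold changes of -2.19, -1.71 and -1.43, and *Gsk3a*, a further kinase of this group, was higher, with 0.75. The casein kinase genes *Csnk1d*, *Csnk1e* and *Csnk1a1*, with 0.43, 0.23 and -0.32, were not called. *Foxp1*, which keeps T cells quiescent, had -0.94. *Irf4*, a partner of BATF and NFAT in activated T cells, averaged 7.20 ± 0.60 in activated cells and 3.99 ± 0.24 in naive cells (SD, n = 3 each), a log2 fold change of 3.21. Store-operated calcium entry, the route of calcium into T cells, was mainly lower, with 11 of 18 tested genes lower, 3 higher and a median of -0.76. *Atp2b4*, among those called lower, passed the filter through its naive libraries alone, so it could not come out higher. *Orai2*, *Atp2a3*, *Saraf* and *Itpr2*, a channel subunit, a calcium pump of the endoplasmic reticulum, a brake on calcium entry and an IP3 receptor, had log2 fold changes of -2.52, -2.24, -2.06 and -1.86. The other 2 channel genes, *Orai1*, which encodes the main pore of the channel in T cells, and *Orai3*, were higher by 1.25 and 0.97.

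Among close relatives, 4 of 5 tested genes were higher and 1 lower, and all 5 were called. Of these, *Egr4* passed the filter through its activated libraries alone, so it could not come out lower. The pair of corepressors that bind EGR proteins went in opposite directions. *Nab2* averaged 7.01 ± 0.04 in activated cells and 5.07 ± 0.40 in naive cells, and *Nab1* averaged 4.11 ± 0.20 in activated cells and 5.84 ± 0.39 in naive cells (SD, n = 3 each). *Egr4* was at 3.55, 3.46 and 3.64 in activated cells, against 1.80, 1.80 and 1.81 in naive cells, all below the base. *Rxrb*, which encodes a retinoid X receptor, a partner of NR4A1 and NR4A2, was higher by 1.21. Of other immediate-early genes, 8 of 17 tested were higher and 5 lower, with a median of 0.56. *Atf3* and *Ier3* passed the filter through their activated libraries alone, so they could not come out lower. *Atf3* was at 6.98, 5.14 and 5.02 in activated cells and close to the base in naive cells. *Fosl1* had a log2 fold change of 2.41, and *Zfp36*, *Fos* and *Elk4* had -2.51, -1.63 and -1.54. *Ier3* averaged 4.31 ± 0.60 in activated cells and 1.80 ± 0.06 in naive cells (SD, n = 3 each), below the base. These immediate-early genes thus did not all go the way of the NR4A genes at day 2.

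**Figure D4:**
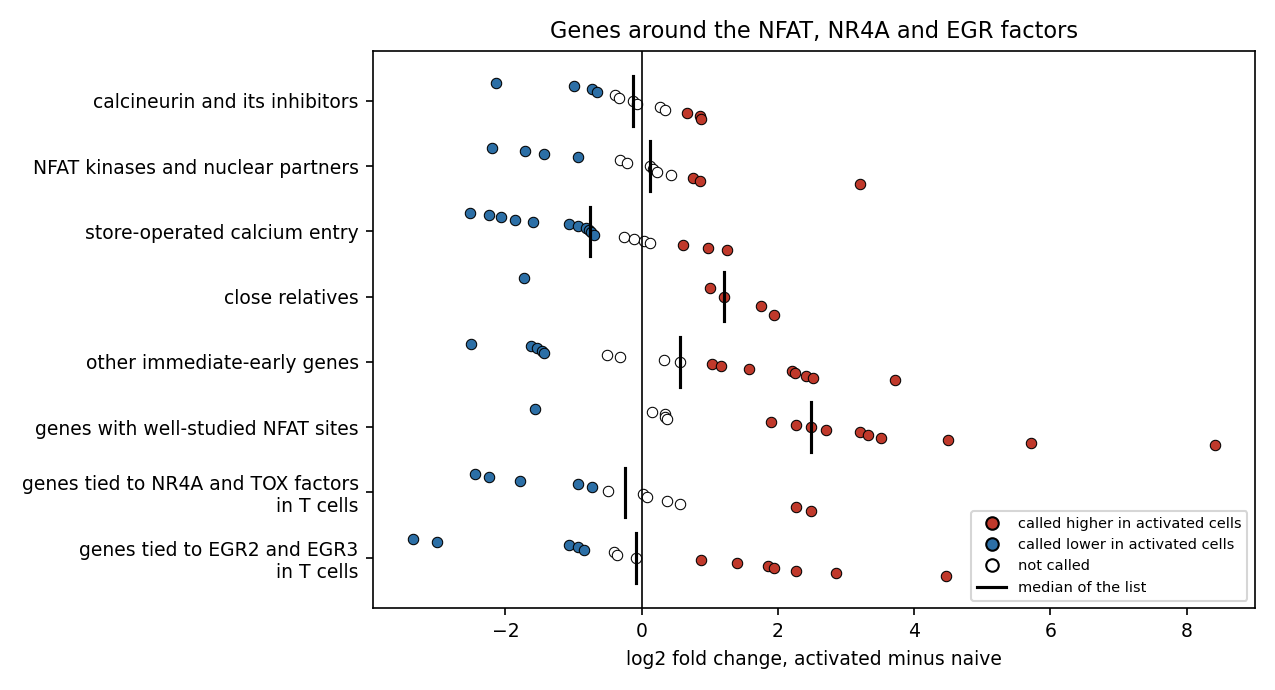
Log2 fold change, activated minus naive (horizontal axis), of each tested gene in the 8 lists of related genes, as points filled by call (red higher, blue lower, white not called), with the median of each list as a line. The genes with NFAT sites lie mainly to the right, and the genes of store-operated calcium entry mainly to the left.

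Genes with well-studied NFAT sites were mainly higher, with 10 of 15 tested genes higher, 1 lower and a median of 2.49, beside *Nfatc1*, *Nfatc2* and *Nfatc3* mRNA that was lower. *Il3*, *Il13* and *Csf2* passed the filter through their activated libraries alone, so they could not come out lower. *Il2*, the T cell growth factor gene, averaged 11.23 ± 0.20 in activated cells and 2.82 ± 0.07 in naive cells (SD, n = 3 each), a log2 fold change of 8.41. *Il3* was at 8.71, 7.45 and 6.96 in activated cells and at the base value in naive cells, so no fold is given. *Csf2* and *Ifng*, cytokine genes, had log2 fold changes of 4.49 and 3.52, and *Csf2* lay near the base in naive cells. *Cd40lg*, which encodes the ligand through which T cells help B cells, was the gene that was lower, with -1.57.

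Genes tied to NR4A and TOX factors in T cells went both ways, with 2 of 12 tested genes higher, 5 lower and a median of -0.24. *Tox2* and *Entpd1* passed the filter through their naive libraries alone, so they could not come out higher. *Pdcd1* and *Lag3*, which encode inhibitory receptors, were higher by 2.49 and 2.27. *Tox* and *Tox2*, which encode factors of exhausted T cells, were lower, with log2 differences of -2.24 and -1.79, and *Tox2* was below the base in all 3 activated libraries. *Foxp3* and *Ikzf2*, with -2.45 and -0.94, are also markers of regulatory T cells, whose summed marker level ranged between 6.0 and 7.99 units in activated cells and between 35.7 and 51.0 in naive cells, with 3 of 3 markers lower. Among all genes tested, 21.6% were called lower. The part of regulatory T cells in the result was not tested. Genes tied to EGR2 and EGR3 had 7 of 15 tested genes higher, 5 lower and a median of -0.08. *Cdkn1a* and *Cdkn1b*, which encode cell cycle inhibitors, had log2 fold changes of 4.46 and -3.0. In naive cells *Cdkn1a* lay near the base, at 2.04, 2.2 and 2.41, so the size of its change depends on how the base is treated. *Socs1*, a brake on cytokine signaling, had 2.86, *Dgka*, which dampens receptor signaling, -3.35, *Bcl6* -1.06 and *Itch*, a ubiquitin ligase gene of anergy, -0.84.

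Markers of other cells were measured in the same libraries, where 31.2% of all genes tested were called higher and 21.6% lower. The 3 tested NK cell markers were lower in activated cells, with sums of 0 to 3.45 units, against 42.4 to 56.5 in naive cells, and of myeloid markers 3 of 4 were lower, with 8.03 to 19.3 units, against 34.5 to 72.9. The NK cell markers *Klrb1c* and *Klrd1* passed the filter through their naive libraries alone, so they could not come out higher. *Cd14* and *Adgre1* were within 0.3 of the base in all 6 libraries. *Lyz2*, *Fcer1g* and *Tyrobp*, the 3 called lower, averaged 4.99, 4.25 and 3.78 in naive cells and 3.13, 2.95 and 3.0 in activated cells. Of 4 tested B cell markers none was called, with sums of 9.39 to 16.0 units in activated cells and 7.23 to 32.7 in naive cells. Of the CD8 markers *Cd8a* was not tested and *Cd8b1* was lower, with sums of 6.78 to 10.5 units in activated cells and 49.5 to 75.2 in naive cells, and the erythroid markers summed to 3.13 to 4.36 units in activated cells and 5.41 to 61.0 in naive cells. The part of these cells in the levels of the 10 genes was not tested.

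RefSeq windows were searched for 7 of the 10 genes, 13 windows in all. Windows on chromosome 18, where *Nfatc1* and *Egr1* lie, were left out, also from the shares of all windows. None was used for *Egr3*. *Nfatc3* had a single TGACG core, 49 bases before its start, and *Nfatc2* and *Nfat5* had none. *Egr2* had 2 cores in each of 3 of its 5 windows. The NFAT core GGAAA was present in windows of *Nfatc2*, *Nfatc3*, *Nfat5*, *Nr4a2* and *Egr2*. The AP-1 motif TGANTCA (6.75% of all windows), the NR4A monomer site AAAGGTCA (1.34%) and the EGR site GCGTGGGCG (0.536%) were in none of the 13.

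**Figure D5:**
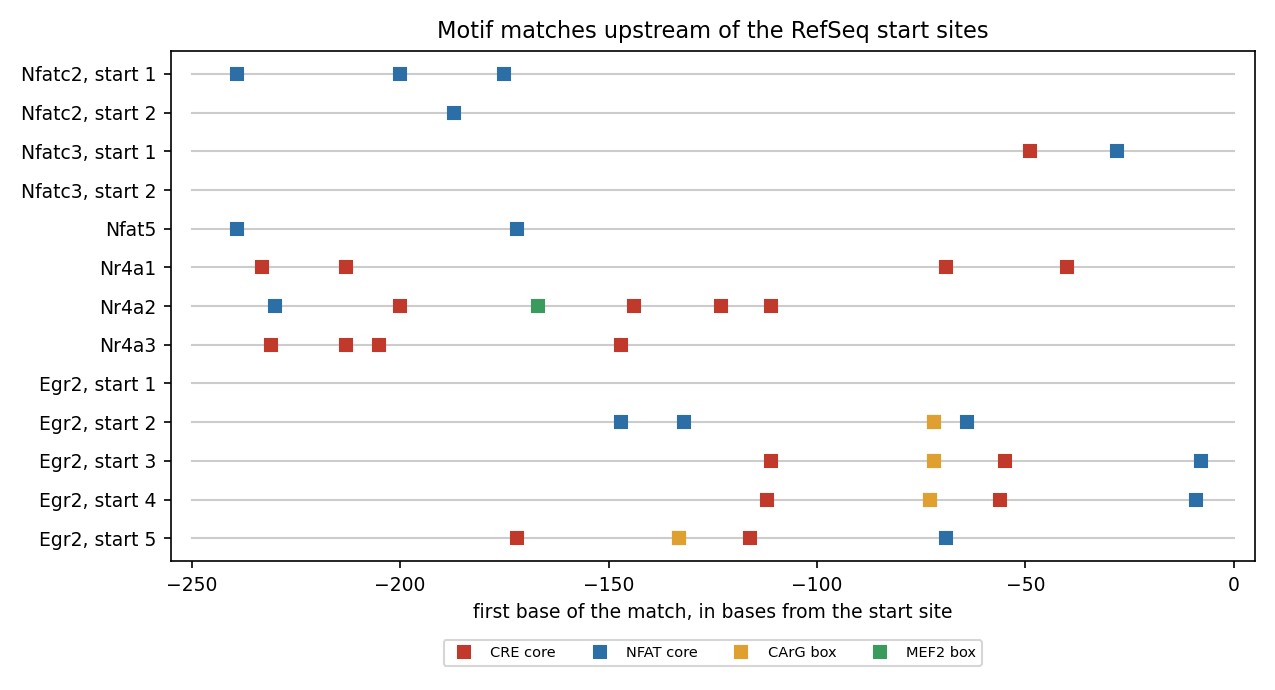
Motif matches (marks) in the 250 bases before each RefSeq start site (horizontal axis, bases from the start) for the genes with a window that was searched, 1 row for each window. The rows of *Nr4a1*, *Nr4a2* and *Nr4a3* each hold 4 marks for the TGACG core (CRE core, red), and the other rows hold at most 2.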

How the data were processed

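The authors deposited log2 values, headed FPKM and in a sheet named for ComBat, for 3 activated and 3 naive libraries. Reads had been aligned to mm10 with HISAT2 2.0.5, assembled with StringTie 1.3.3b and counted with featureCounts 1.5.0-p3. The sources do not state the pseudocount, the batches or the step to these values. The p-values rest on the spread that remained after batch correction, which may be smaller than the original spread. Without counts, the DESeq2 test of the study's methods was not run.

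Genes exceeding the base value by 1 linear unit or more in 3 or more of the 6 libraries were fitted with limma 3.58.1 (lmFit, eBayes with trend) in R 4.3.3, with no covariate, and called at an adjusted p under 0.05 and 1.5-fold. The fit was tested on simulated data. Single values had an exact two-sided permutation test. Units above the base are 2 to the power of the log2 value, minus the base, with values below it set to 0. The genes and lists were chosen with earlier results of these data known. Named are the 10 genes, *Rcan1*, *Nab1* and *Nab2*, in each list the most changed called genes with groups that do not overlap (up to 4, and up to 2 in the opposite direction), and the 3 genes nearest in pattern to the most changed gene of each family. Also named, outside this rule, are *Gsk3a*, the casein kinase genes, genes that passed the filter through 1 group alone, and cell markers. Alternatives were other scalings, pseudocounts, filters, fold thresholds and variance models, a replicate block, each library left out in turn and, added after seeing the data, both libraries that stand apart left out. Positions come from GENCODE M21 (GRCm38/mm10), matched by symbol, and upstream sequences from RefSeq (GRCm38.p6). Tables and figures were made in Python 3.11.15 (matplotlib 3.10.9, scipy 1.17.1, numpy 2.4.6, pandas 2.3.3).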

Additional observations from a re-analysis of the deposited data

How the results depend on the processing

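*Nr4a1*, *Nr4a2*, *Nr4a3*, *Egr2*, *Egr3* and *Nfatc3* kept their call under all 19 alternatives, and no gene of the 10 changed direction. *Nfatc1* and *Nfatc2* were lost at a 2-fold threshold, which left 1 of the 10 genes lower and called 1913 of all genes higher and 1181 lower (3094 in all). *Nfatc1* was also lost without naive replicate 3, though not when activated replicate 1 was left out with it (-0.65). *Egr1* gained the call with no fold threshold, without activated replicate 3 and without naive replicate 2, and *Nfat5* was never called. The difference of the *Nfatc2* to *Nfatc3* ratio was -0.075 with a pseudocount of 0.1 and -0.020 with 0.5, and the log2 difference of *Nr4a2* was 7.83, 5.53 and 4.56 with pseudocounts of 0.1, 0.5 and 1, since its naive values lie below the base. The median log2 fold change of all genes was 0.13 as deposited, 0.00 after quantile normalization, 0.01 after median-of-ratios scaling and -0.08 after upper-quartile scaling, and the higher share of the called genes was 59.1%, 50.2%, 51.0% and 45.6%. Across these scalings *Nr4a1* was between 2.25 and 2.52, *Egr1* between 0.16 and 0.53 and *Nfatc1* between -0.69 and -0.90. Deviations from the group means correlated at -0.011, -0.051 and -0.138 between same-numbered libraries. The table is named for a batch correction whose batches are not stated, so these correlations cannot show whether libraries were paired. A replicate block called 5383 genes, against 5370 without it, with the same calls for the 10 genes. Identical values in activated replicates 2 and 3 (670 genes) and naive replicates 1 and 2 (352 genes), to within 1e-09, included none of the 10. Since the table has no counts, the counting error behind low values, such as those of *Nfatc2* and *Nr4a2*, could not be given.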

Other observations

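Genes outside the families were ranked by how closely their 6 log2 values, each centred on its own mean, followed those of the most changed gene of each family, as the root mean square difference over the 6 libraries. Nearest to *Nfatc3* were *Igf2r* (0.054), which encodes the receptor for mannose 6-phosphate, *Cmtm6* (0.056), which stabilises PD-L1 at the cell surface, and *Kdm3b* (0.060), a histone demethylase gene. *Igf2r* was at 4.09, 3.63 and 3.54 in activated cells, against 4.85, 4.75 and 4.88 in naive cells. Nearest to *Nr4a2* were *Shmt1* (0.055), an enzyme gene of folate metabolism, *Cdca7* (0.069), a gene of the cell cycle, and *Zwilch* (0.077), a gene of the kinetochore. *Shmt1* was at 6.85, 6.62 and 6.65 in activated cells, against 3.83, 3.70 and 3.92 in naive cells. Nearest to *Egr2* were *Txnrd1* (0.065), which encodes thioredoxin reductase, *Gemin8* (0.066), of the SMN complex, and *U2af1* (0.078), a splicing factor gene. *Txnrd1* was at 6.19, 5.82 and 5.76 in activated cells, against 4.26, 4.43 and 4.43 in naive cells. The naive values of *Nr4a2* lie below the base, so its neighbours depend on the deposited size of its difference, which was 2.94 as deposited and 4.56 with a pseudocount of 1 above the base. With 6 libraries in 2 groups, a small difference of this kind mostly says that a gene changed by a like amount between the groups.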
